A study of Mus musculus with 6 samples.

Results

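The genes described here encode the suppressor of cytokine signalling (SOCS) family, *Cish* and *Socs1* to *Socs7*. They were chosen by symbol, and all 8 were found among the 24445 genes of a table of RNA-seq read counts. The libraries came from bone marrow-derived macrophages (BMDMs) of C57Bl/6J mice. Precursors matured over 7 days with L929-conditioned medium, a source of the growth factor CSF1, and every culture then received IL-4 at 100 U/mL over 24 h. The age and sex of the donor mice are not given in the sources used here. The AclyM-KO group has 3 libraries from mice in which Cre under *Lyz2* control removes the floxed exon 9 of *Acly*, the gene of ATP citrate lyase. The Ctrl group has 3 libraries from floxed Acly fl/fl littermates, which carry the loxP sites and no deletion and which the deposited labels call WT. Naive macrophages were not analysed here. The libraries are called biological replicates in the statistics of the study and technical replicates from 3 pooled mice in a figure legend. The p-values below thus measure the spread between libraries and cannot be taken to measure the spread between mice. On the 1 transcript kept per gene, counts per library were 12151975 to 14739689 in Ctrl (median 13074469). In AclyM-KO they were 14745614 to 15587283 (median 14787741). Over all deposited transcripts they were 21827302 to 26589331 in Ctrl and 26342251 to 28089781 in AclyM-KO.

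SOCS proteins are the feedback inhibitors of cytokine receptors that signal through Janus kinases (JAKs) and STAT transcription factors. A cytokine brings its receptor chains together, the attached JAKs phosphorylate the receptor and the STATs, and the STATs switch on target genes, some SOCS genes among them. Each SOCS protein binds phosphotyrosine with an SH2 domain and recruits elongins and a cullin through its SOCS box, so that bound proteins can be ubiquitinated. In macrophages, IL-4 acts mainly through STAT6, and *Cish* and *Socs1* are known IL-4-responsive genes.

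Less *Acly* RNA was found in the AclyM-KO libraries. Levels are given as CPM, the counts relative to the scaled library size. *Acly* had 332, 321 and 350 CPM in the Ctrl libraries and 146, 134 and 136 CPM in the AclyM-KO libraries. The groups did not overlap, and the AclyM-KO mean was 41.4% of the Ctrl mean (log2 fold change -1.27, standard error 0.053, edgeR adjusted p = 5.22e-10). As the counts cover all exons, transcripts without exon 9 are still counted.

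Of the 8 SOCS family genes, *Cish* and *Socs2* fell in AclyM-KO macrophages, *Socs7* rose slightly, and the other 5 did not pass the test. The *Socs7* result did not pass with DESeq2 (adjusted p = 0.0579) or in 2 of the 6 fits that left out a library. A gene was called when its edgeR adjusted p-value was under 0.05 and its log2 fold change lay beyond 0.58 in either direction, where positive means higher in AclyM-KO. All 8 genes were among the 12023 genes tested. The 2 of 8 genes called compare with 5.55% of all genes tested called in either direction and 2.57% called lower, whereas 0 were called higher by edgeR, DESeq2 or limma-voom, against 2.98% of all genes by edgeR. Unadjusted, 2 of the 8 genes had an edgeR p-value under 0.05 and lower expression, and 1 had one with higher expression, a share near the 4416 of 12023 genes tested that had one in either direction. Groups did not overlap for 3 of the 8 genes and for 40.2% of all genes tested. Log2 fold changes of the family were below 0 for 4 genes and above 0 for 4, with a median of 0.062, while the median of all genes tested was 0.0014.

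**Figure D1:**
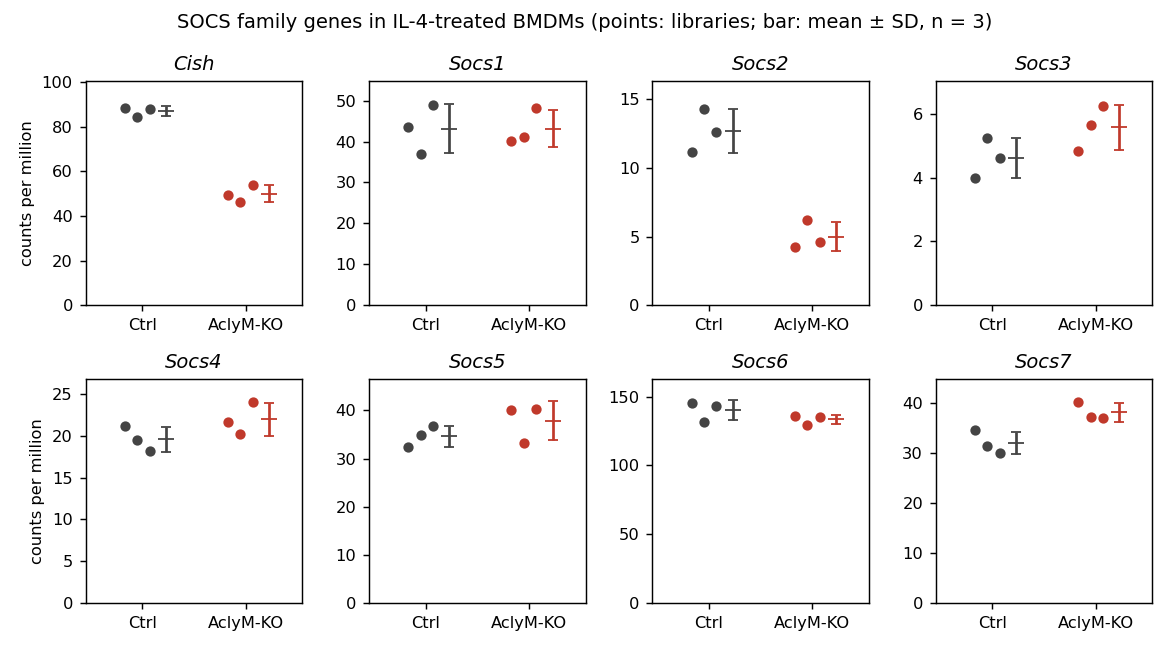
Expression of the 8 SOCS family genes in CPM (vertical axes, each starting at 0) in the 3 Ctrl and 3 AclyM-KO libraries of IL-4-treated BMDMs. Points are libraries and bars are mean ± SD (n = 3); the AclyM-KO points of *Cish* and *Socs2* lie below all Ctrl points, and those of *Socs7* lie above them.

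*Cish* encodes the cytokine-inducible SH2 protein, the founding member of the family and a known STAT5 target gene that acts on receptors using STAT5. It lies on the plus strand of chromosome 9 from 107296026 to 107302784 (GRCm38). Its expression was 88.4, 84.4 and 88.1 CPM in the Ctrl libraries and 49.5, 46.4 and 54.1 CPM in the AclyM-KO libraries. The 3 AclyM-KO libraries were all far below the 3 Ctrl libraries. *Cish* thus fell from 87.0 ± 2.24 to 49.99 ± 3.86 CPM (n = 3 per group, SD), or to 57.5% of the Ctrl mean. This was a log2 fold change of -0.80 (standard error 0.060, 95% interval -0.93 to -0.67, edgeR adjusted p = 2.19e-07), and the gene ranked 40 of all genes tested by p-value. A two-sided exact permutation test gave p = 0.10, the smallest that 3 against 3 libraries allow. In bulk RNA, fewer cells of a type and less RNA per cell cannot be told apart. The deposited table holds 2 *Cish* transcripts with the same counts. In the kept transcript, 21.2% of the exonic bases lie under exons of *Gm17040* and *Gm17041* on the other strand, and because strand was not used in the counting, reads from these genes cannot be told apart from *Cish* reads.

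STAT dimers bind palindromes with a spacer, and the core letters TTCNNNGAA are the form bound by STAT5 and STAT3, while STAT6 prefers TTCNNNNGAA. Both motifs read the same on either strand, and from one TTC only one of them can match. Promoter sequences of RefSeq (GRCm38.p6), which run from 250 bases before a gene's start site to 50 bases from it on, were at hand for *Cish*, *Socs1*, *Socs3* and *Socs4*. Stretches of 30 bases around the matches are shown for *Cish*, the called gene among these 4, and for *Socs3*, the other gene with a match. Capitals mark TTCNNNGAA.
Cish, plus strand, chr9:107296654-107296683: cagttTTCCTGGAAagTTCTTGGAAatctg
Socs3, minus strand, chr11:117969501-117969530: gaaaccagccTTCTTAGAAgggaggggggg
The *Cish* promoter held 2 matches side by side, which start at bases 1 and 12 counted from the RefSeq start site. Both lie within the GENCODE span of the gene, which starts earlier, at 107296026. At least 2 matches were found in 0.457% of the 32851 promoters and at least 1 in 8.3%. *Socs3* held 1 match, 154 bases before its start site, and *Socs1* and *Socs4* held 0. The spacing TTCNNNNGAA was found in 6.95% of all promoters and in 0 of these 4. A match is a string of letters and does not show that a factor bound there.

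*Socs2* encodes the member best known for restraining growth hormone signalling, and it is likewise a known STAT5 target gene. Its gene spans bases 95385362 to 95417180 of chromosome 10, on the minus strand (GRCm38). In Ctrl it had 165, 175 and 166 counts, and in AclyM-KO it had 62, 96 and 67 counts despite the larger libraries. Scaled, this was 11.1, 14.3 and 12.6 CPM in Ctrl and 4.23, 6.18 and 4.59 CPM in AclyM-KO. Every AclyM-KO library was below every Ctrl library. *Socs2* fell from 12.7 ± 1.58 to 5.0 ± 1.04 CPM (n = 3 per group, SD), or to 39.4% of the Ctrl mean. With a log2 fold change of -1.33 (standard error 0.16, 95% interval -1.67 to -0.99, edgeR adjusted p = 2.16e-05), this was the change furthest from 0 in the family. The 4 *Socs2* transcripts of the table had totals of 717 to 731 counts over the 6 libraries, so nearly all reads were shared by them. Although *Socs2* fell further than *Cish* on average, the reads of *Cish* per *Socs2* read overlapped between groups, with 5.90 to 7.93 in Ctrl and 7.51 to 11.8 in AclyM-KO (exact permutation test, two-sided, p = 0.20).

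*Socs1* encodes a direct inhibitor of JAK kinase activity that limits responses to interferon-γ and IL-4. It had 43.5, 37.0 and 49.0 CPM in Ctrl and 40.0, 41.0 and 48.3 CPM in AclyM-KO. The groups overlapped completely, with means of 43.2 ± 6.04 and 43.1 ± 4.51 CPM (n = 3 per group, SD). Its log2 fold change was -0.0040 (95% interval -0.20 to 0.19, edgeR adjusted p = 0.980), so changes of the size seen in *Cish* lie outside the interval. Relative to *Socs1* reads, which removes any effect of library scaling, *Cish* had 1.8 to 2.28 reads in Ctrl and 1.12 to 1.24 in AclyM-KO, and *Socs2* had 0.256 to 0.387 and 0.095 to 0.15 (exact permutation test, two-sided, p = 0.10 for each ratio). Of the 7 ratios to *Socs1*, those of the other 5 genes overlapped between groups, with exact permutation p-values of 0.30 to 0.60.

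*Socs3* encodes the inhibitor of receptors that use gp130 and of the G-CSF receptor, and it is a known STAT3 target gene. It was the least abundant of the 8 genes by counts in Ctrl, with 59, 64 and 61 counts in Ctrl and 71, 88 and 91 in AclyM-KO. In CPM the values were 3.99, 5.23 and 4.63 in Ctrl and 4.84, 5.66 and 6.24 in AclyM-KO. The lowest AclyM-KO library lay within the Ctrl range. The log2 fold change of 0.28 had the widest interval of the family, from -0.088 to 0.65 (edgeR adjusted p = 0.261), an interval that holds both no change and a rise beyond the limit.

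The remaining members have long N-terminal regions and are less tied to STAT-driven transcription. *Socs4* and *Socs5*, whose products act on the EGF receptor, had log2 fold changes of 0.16 (95% interval -0.038 to 0.36, edgeR adjusted p = 0.232) and 0.13 (95% interval -0.049 to 0.30, edgeR adjusted p = 0.288). *Socs4* ranged from 18.2 to 21.2 CPM in Ctrl and from 20.2 to 24.1 CPM in AclyM-KO. *Socs5* ranged from 32.4 to 36.7 CPM in Ctrl and from 33.2 to 40.2 CPM in AclyM-KO. Both pairs of groups overlapped. *Socs6*, whose product binds insulin receptor substrates and the receptor KIT, had the most counts of the family, with 132 to 145 CPM in Ctrl and 130 to 136 CPM in AclyM-KO (log2 fold change -0.070, 95% interval -0.18 to 0.041, edgeR adjusted p = 0.359). For *Socs4*, *Socs5* and *Socs6* the whole interval lay within the fold change limit.

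*Socs7* encodes a relative of *Socs6* that binds insulin receptor substrates and the adaptor NCK. It had 34.6, 31.4 and 30.1 CPM in Ctrl and 40.3, 37.3 and 37.0 CPM in AclyM-KO. The 3 AclyM-KO libraries were above the 3 Ctrl libraries by a small margin. *Socs7* rose from 32 ± 2.30 to 38.2 ± 1.85 CPM (n = 3 per group, SD), a log2 fold change of 0.25 within the limit (standard error 0.073, 95% interval 0.094 to 0.41, edgeR adjusted p = 0.0209). An adjusted p-value under 0.05 at any fold change was seen for 24.9% of all genes tested. The adjusted p-value of *Socs7* was 0.0579 with DESeq2, 0.0904 without Ctrl replicate 3 and 0.103 without AclyM-KO replicate 1.

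The levels of the genes were compared with each other as RPKM, the CPM divided by the transcript length in kilobases, using transcript lengths of GENCODE M21. In Ctrl, *Cish* was at 31.7 ± 0.817, *Socs5* at 7.45 ± 0.472, *Socs2* at 5.71 ± 0.713, *Socs7* at 4.57 ± 0.328, *Socs4* at 2.85 ± 0.219 and *Socs3* at 1.81 ± 0.245 RPKM (SD, n = 3 each). No neighbours in this order overlapped over the 3 libraries. In AclyM-KO, *Cish* was at 18.2 ± 1.41, *Socs5* at 8.14 ± 0.866, *Socs7* at 5.44 ± 0.263, *Socs4* at 3.20 ± 0.288, *Socs2* at 2.25 ± 0.466 and *Socs3* at 2.19 ± 0.274 RPKM (SD, n = 3 each). With these lengths, *Socs2* stood above *Socs7* and *Socs4* in Ctrl and below them in AclyM-KO, where it could not be separated from *Socs3*. The margin over *Socs7* in Ctrl was small, with a lowest *Socs2* value of 5.02 and a highest *Socs7* value of 4.93 RPKM. Reads were counted on RefSeq transcripts, whose lengths were not at hand, so the order of close genes depends on the GENCODE lengths. The places of *Socs6* and *Socs1* relative to *Cish* and to each other are not certain because their annotated lengths differ. With either length, both stood above *Socs5* in Ctrl. The lowest Ctrl values were 21.8 RPKM for *Socs6* and 12.7 for *Socs1*, and the highest *Socs5* value was 7.90. *Socs6* was at 48.0 RPKM in Ctrl with the 2921-base transcript paired with it and at 23.2 RPKM with the longest coding transcript of 6036 bases. *Socs1* was at 14.8 RPKM in Ctrl with the 2908-base GENCODE transcript and at 25 RPKM with the whole 1729-base span of the RefSeq gene. The RefSeq transcript cannot exceed that span, and a shorter length would give a higher value.

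The 8 genes together had 358 to 383 CPM in Ctrl and 320 to 349 CPM in AclyM-KO. *Cish* made up 23.3% ± 0.27 of these counts in Ctrl and 14.9% ± 0.505 in AclyM-KO, and *Socs2* 3.41% ± 0.541 and 1.5% ± 0.375 (SD, n = 3 each). The corresponding shares were 37.5% ± 0.707 and 39.8% ± 1.08 for *Socs6*, 11.5% ± 1.25 and 12.9% ± 0.963 for *Socs1*, and 8.58% ± 0.632 and 11.4% ± 0.727 for *Socs7*. Since the shares add up, a lower share of one gene raises those of the others.

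**Figure D2:**
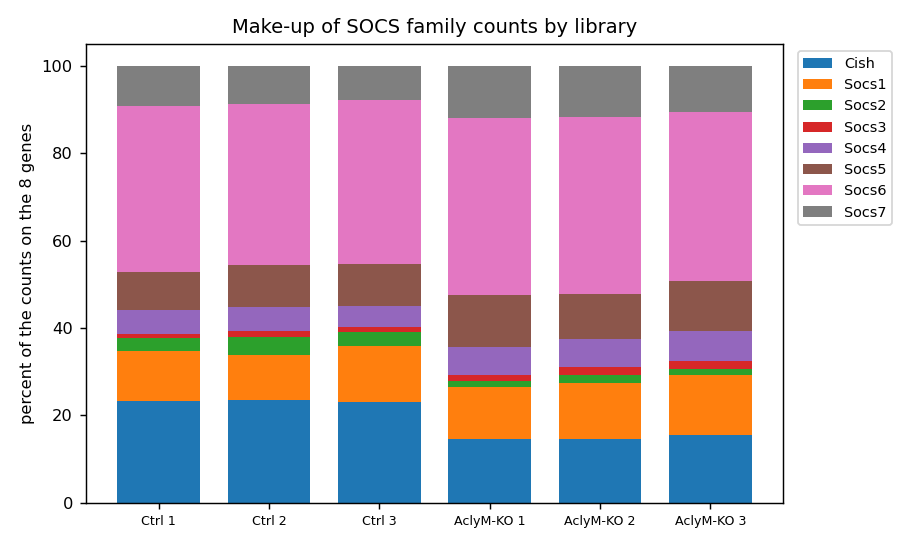
Percent of the counts on the 8 SOCS family genes (vertical axis) taken by each gene in each library, without correction for transcript length. The lowest segment, *Cish*, is 23.0% to 23.6% of the bar in the 3 Ctrl libraries and 14.5% to 15.5% in the 3 AclyM-KO libraries.

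Among genes with a mean of at least 10 CPM, those whose log2 CPM followed *Cish* most closely over the 6 libraries were *Ahr*, the aryl hydrocarbon receptor (Pearson r = 0.997), *Pde4b*, a cAMP phosphodiesterase (r = 0.996), and *Entpd1*, the ectonucleotidase CD39 (r = 0.996). Their own log2 fold changes were -0.45, -0.86 and -0.48, with edgeR adjusted p-values of 3.10e-04, 2.15e-05 and 3.96e-06. For *Socs2* they were *Gm16793* (r = 0.997), *Ginm1* (r = 0.996) and *Pdk1*, a kinase that inhibits pyruvate dehydrogenase (r = 0.994). *Pdk1* fell by 0.75 on the log2 scale (adjusted p = 9.48e-06 by edgeR), while *Gm16793* and *Ginm1*, at -0.23 and -0.16, did not pass the test (edgeR adjusted p = 0.103 and 0.123). These are the highest of 8411 and 8412 correlations over the same 6 libraries, which include the difference between the groups.

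The other genes of the pathway were read from lists written by hand. Of 20 cytokines that signal through JAKs and STATs, 5 had enough counts to be tested, and *Csf1* was lower by 0.17 on the log2 scale (edgeR adjusted p = 0.0465), a result lost in 4 of the 6 fits without a library. *Il4* had 0, 0 and 3 counts in Ctrl and 2, 6 and 3 counts in AclyM-KO, so the added IL-4 was not matched by abundant *Il4* RNA. *Csf2*, *Ifng* and *Ifnb1* had 0 counts in every library, which allows up to 0.192 to 0.247 CPM depending on the library.

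Receptor chains for such cytokines were more often lower than higher. Of 32 chains 24 were tested, 11 passed the test with lower and 1 with higher expression, against 12.6% lower and 12.4% higher among all genes tested at any fold change, and the median log2 fold change was -0.17. The interferon-γ receptor chain *Ifngr1* fell from 189 ± 13.1 to 132 ± 0.838 CPM (n = 3 per group, SD), a log2 fold change of -0.52 (edgeR adjusted p = 5.68e-06) that passed the limit, at -0.58, without Ctrl replicate 2. *Il10ra* (-0.46), the G-CSF receptor gene *Csf3r* (-0.39), *Il21r* (-0.39), *Csf2rb2* (-0.30) and *Ifnar2* (-0.27) also fell on the log2 scale, each with an adjusted p of 0.00806 or less by edgeR, and their groups did not overlap. *Csf2rb* (-0.17, edgeR adjusted p = 0.00645) lost significance without AclyM-KO replicate 2, and reads of *Csf2rb* and its paralog *Csf2rb2* may be confused. *Lifr*, the LIF receptor chain that pairs with gp130, was the chain that rose, from 10.6 ± 1.56 to 23.2 ± 1.79 CPM (SD, n = 3 in both groups). On the log2 scale this was 1.12 (SE 0.11, edgeR adjusted p = 3.11e-06). Its 3 AclyM-KO libraries had 310 to 370 counts and its Ctrl libraries 115 to 183. *Il13ra1* was called lower (-0.67, edgeR adjusted p = 0.0295) on 34 to 63 counts per library, and lost the call with DESeq2 and in all fits without a library except that without Ctrl replicate 2. *Il2rg*, *Il6ra* and *Il12rb1* passed the test as lower within the limit but lost it in at least 3 of the 6 fits without a library. *Il4ra*, the IL-4 receptor chain itself, had a log2 fold change of -0.071 (95% interval -0.20 to 0.054, edgeR adjusted p = 0.416).

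All 4 JAK genes were tested, and their changes lay within the limit. *Jak2*, the kinase of growth hormone, GM-CSF and interferon-γ receptors, rose from 235 ± 8.67 to 281 ± 7.46 CPM (n = 3 per group, SD; log2 fold change 0.26, edgeR adjusted p = 0.00130). *Jak3*, the partner of the common γ chain, fell from 40.8 ± 2.40 to 31.7 ± 1.03 CPM (n = 3 per group, SD; -0.36, edgeR adjusted p = 0.00134). Groups did not overlap for either gene. *Jak1* and *Tyk2* were at -0.11 each (edgeR adjusted p = 0.0901 and 0.152).

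The STAT genes moved little. *Stat5b* was lower by 0.19 on the log2 scale (68.7 ± 0.637 to 60.4 ± 2.17 CPM, SD, n = 3 each, edgeR adjusted p = 0.0165), a result lost with DESeq2 (adjusted p = 0.0514) and without AclyM-KO replicate 2 (adjusted p = 0.0999). Its twin *Stat5a* was at 0.18 (edgeR adjusted p = 0.0855), and *Stat6* was at -0.12 with 261 ± 3.53 and 240 ± 4.84 CPM (n = 3 per group, SD, edgeR adjusted p = 0.0689). *Stat2* and *Stat3* were at 0.041 and 0.072 (edgeR adjusted p = 0.629 and 0.304). *Stat4*, with 12 to 23 counts per library, was at -0.67 with an interval from -1.39 to 0.039 (edgeR adjusted p = 0.160). RNA levels do not measure the phosphorylation of these proteins.

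**Figure D3:**
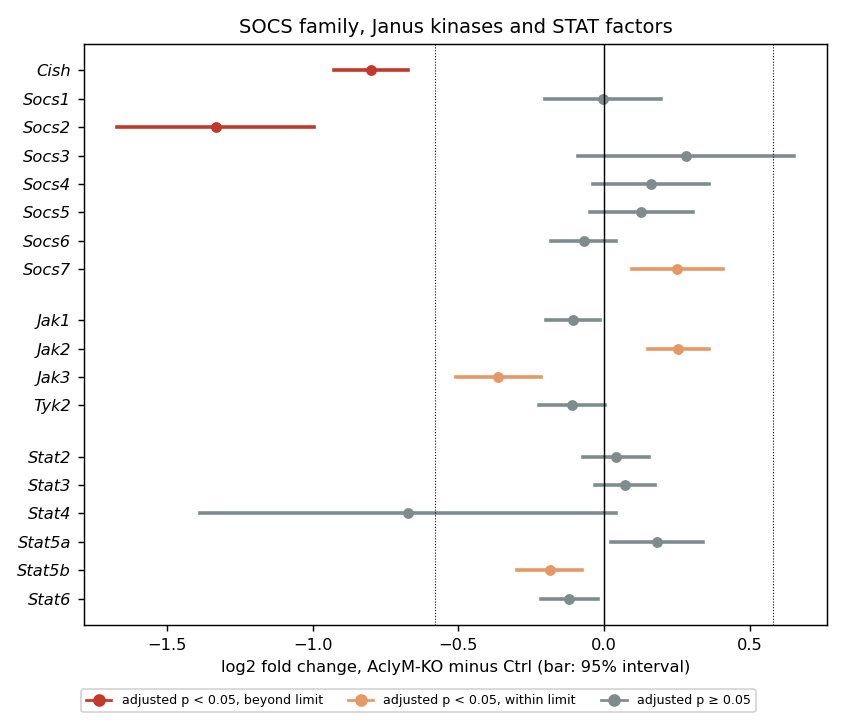
Log2 fold changes of AclyM-KO against Ctrl (horizontal axis) with 95% intervals for the SOCS family, the 4 JAK and 6 STAT genes, coloured by test result, with dotted lines at the fold change limit. The intervals of *Cish* (-0.93 to -0.67) and *Socs2* (-1.67 to -0.99) lie wholly beyond the lower line, and no other gene has its whole interval beyond a line.

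Inhibitors of the pathway outside the SOCS family went both ways. Of 16 genes tested, 4 passed the test as lower and 3 as higher, all within the limit, against 12.6% lower and 12.4% higher among all genes tested, with a median log2 fold change of -0.10. The adaptor gene *Dok2* (-0.44, edgeR adjusted p = 2.58e-04) and the ubiquitin ligase gene *Cbl* (-0.38, edgeR adjusted p = 6.18e-04) fell in all fits without a library, and *Sh2b3*, which encodes the JAK2 inhibitor LNK, rose in all of them (0.30, edgeR adjusted p = 0.00111). The phosphatase genes *Ptpn6* (-0.20), *Ptpre* (-0.15) and *Ptpn11* (0.22) and the ligase gene *Cblb* (0.16) passed the test on the log2 scale (edgeR adjusted p at most 0.0362) but lost it in 1 to 5 of these 6 fits.

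The ligase that the SOCS box recruits was measured through 10 genes. *Cul5*, its cullin, and *Rbx1*, a RING subunit of related cullin ligases, were higher by 0.19 and 0.20 on the log2 scale (edgeR adjusted p = 0.0254 and 0.0422), and both results were lost in at least 3 of 6 fits without a library. These 2 of 10 genes that passed as higher compare with 12.4% of all genes tested. The elongin genes *Elob* (-0.049) and *Eloc* (0.14) did not pass the test. Among 28 other genes of SOCS box proteins, 17 were tested, 2 passed as lower and 2 as higher, a share near the 12.6% and 12.4% of all genes tested, and the median was 0.012. *Vhl*, the ligase subunit that marks HIF-1α for degradation, fell from 40.9 ± 4.01 to 30.7 ± 2.15 CPM (n = 3 per group, SD; log2 fold change -0.42, edgeR adjusted p = 0.00161), and *Wsb2* rose by 0.19 on the log2 scale (edgeR adjusted p = 0.00810). *Asb13* (-0.46) and *Tulp4* (0.16) lost significance in 3 and 5 of the 6 fits without a library.

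Since *Cish* and *Socs2* are known STAT5 targets, 13 other target genes of STAT5 were listed, of which 11 were tested. The kinase gene *Pim1* fell by 0.22 (edgeR adjusted p = 0.00425) and *Id2*, an inhibitor of DNA-binding factors, by 0.52 (edgeR adjusted p = 5.77e-06) on the log2 scale, both with groups that did not overlap. *Ccnd1*, the cyclin D1 gene, was higher by 0.27 (edgeR adjusted p = 0.0238) with overlapping groups, and this was lost in 4 of the 6 fits without a library. The other 8, *Bcl2l1*, *Mcl1*, *Myc*, *Osm*, *Pim2*, *Ccnd2*, *Gadd45g* and *Bcl6*, did not pass the test, and 2 lower and 1 higher of 11 is near the 12.6% and 12.4% of all genes tested. The median of the 11 genes was -0.11, and *Id2*, the lowest of them, was nearer to 0 than *Cish*.

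Target genes of STAT6 and STAT3 were read in the same way. Of 15 STAT6 target and IL-4 marker genes tested, 6 passed as lower, 4 of them beyond the limit, and 2 passed as higher, with a median of -0.26. Among all genes tested, 12.6% passed as lower, 2.57% were called lower and 12.4% passed as higher. The chemokine gene *Ccl22* (-1.07), *Cdh1* (-0.80), the transglutaminase gene *Tgm2* (-0.71) and *Mgl2* (-0.59) were called lower on the log2 scale, and *Irf4* (-0.39) and *Egr2* (-0.48) fell within the limit. *Mgl2* and *Cdh1* lost the call without Ctrl replicate 2, at -0.55 and -0.57. The lectin gene *Clec10a* (0.31) and the transcription factor gene *Klf4* (0.48) rose within the limit. Among these values, the -0.80 of *Cish* stood beside *Cdh1*, and the -1.33 of *Socs2* lay below *Ccl22*.

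Of 10 STAT3 target genes, to which *Socs3* belongs by its regulation, *Junb* (-0.35) and *Nfil3* (-0.27) fell and *Zfp36* (0.37) and *Sbno2* (0.21) rose within the limit, while *Saa3*, an acute-phase gene, rose by 0.81 on the log2 scale (edgeR adjusted p = 0.00305). *Sbno2* lost significance without AclyM-KO replicate 2 or 3. The other 5 did not pass the test, so 2 of 10 passed as lower and 3 as higher, against 12.6% and 12.4% of all genes tested. Genes of SOCS binding partners and substrates included *Kit*, a receptor tyrosine kinase gene, which rose from 3.19 ± 0.829 to 7.61 ± 0.618 CPM (SD, n = 3 in both groups). On the log2 scale this was 1.26 (SE 0.19, edgeR adjusted p = 1.65e-04) on 35 to 121 counts per library. The focal adhesion kinase gene *Ptk2* rose within the limit (0.44, edgeR adjusted p = 0.00193). *Irs2*, the insulin receptor substrate of IL-4 signalling, was at 0.16 and did not pass the test, and *Tirap* (-0.36), *Plcg1* (-0.20) and *Vav1* (-0.16) were lower but lost significance in at least 3 of 6 fits without a library. In all, 3 of 10 such genes passed as lower and 2 as higher, against 12.6% and 12.4% of all genes tested. Of the genes named above whose results were lost without single libraries, *Csf1*, *Il6ra*, *Il12rb1*, *Cul5*, *Rbx1*, *Asb13*, *Tulp4*, *Ccnd1*, *Plcg1* and *Vav1* did not pass with DESeq2 either (adjusted p from 0.0632 to 0.160).

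**Figure D4:**
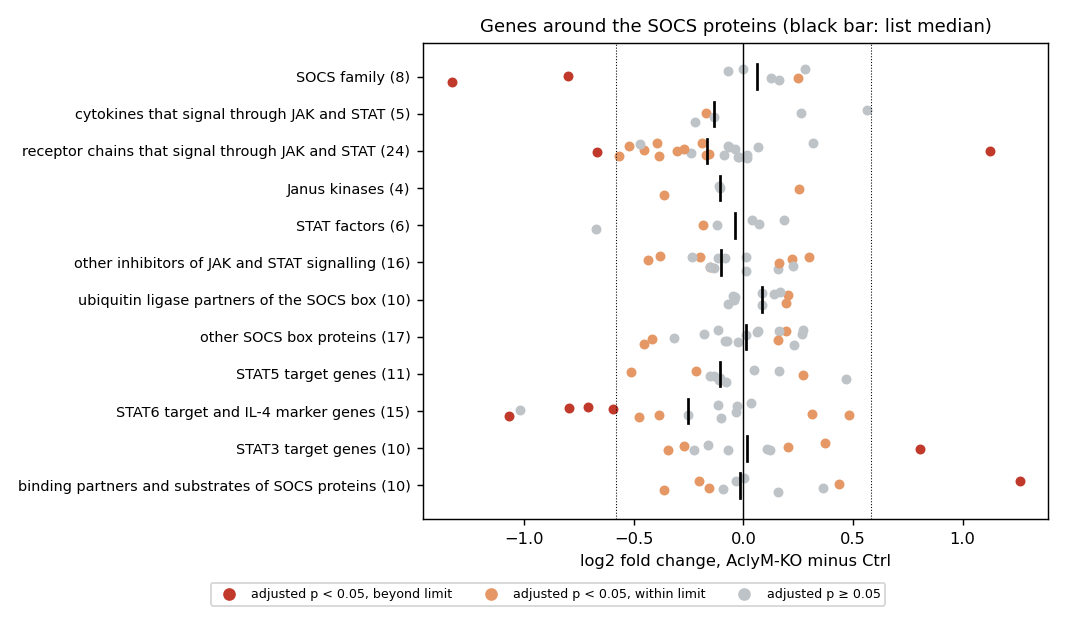
Log2 fold changes of AclyM-KO against Ctrl (horizontal axis) for the tested genes of the SOCS family and the pathway lists (number of genes in brackets; cell type markers are not drawn), with 1 point per gene, vertical scatter for legibility, black bars at list medians and dotted lines at the fold change limit. The medians drawn lie between -0.26 for STAT6 target and IL-4 marker genes and 0.085 for the ubiquitin ligase partners.

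The libraries were checked for macrophage identity and for other cells. The macrophage genes *Lyz2*, *Csf1r*, *Cd68* and *Adgre1* had 6595, 2434, 2430 and 1573 CPM on average in Ctrl. Of 7 macrophage markers, *Adgre1* was higher in AclyM-KO (0.33), *Csf1r* (-0.20) and *Itgam* (-0.28) were lower within the limit, and *Mertk* (-0.73) and the Cre driver *Lyz2* (-0.67) were called lower on the log2 scale. Neutrophil markers were low, with a sum over 9 genes of 16.5 to 18.8 CPM in Ctrl and 24.3 to 26.1 CPM in AclyM-KO. The most abundant of them was *S100a9*, and *S100a8* (0.85) and *S100a9* (0.59) were called higher, the latter not without Ctrl replicate 3. *Ngp* and *Ltf*, which encode granule proteins, had 59 to 69 and 42 to 58 counts in Ctrl and 83 to 104 and 67 to 74 in AclyM-KO, so the groups did not overlap, but their log2 fold changes of 0.37 and 0.35 did not pass the test (edgeR adjusted p = 0.108 and 0.206). All 4 neutrophil markers tested thus had values above 0, and the other 5 had at most 5 counts in a library, *Ly6g* and *Elane* at most 2. The sum of 7 dendritic cell markers was 2.57 to 4.33 CPM in Ctrl and 4.04 to 5.08 CPM in AclyM-KO, with *Zbtb46* the most abundant. *Cd209a* among them was called higher on 3 to 16 counts, a call lost without Ctrl replicate 1 and with DESeq2 (adjusted p = 0.0772). Of 7 lymphocyte markers *Cd4* was the only one tested and was lower (-0.57, edgeR adjusted p = 0.00243), whereas *Cd3e* and *Cd3g* had at most 2 counts in a library. *Cd4* passed the limit without Ctrl replicate 2 or AclyM-KO replicate 3. The list summed to 14.4 to 17.7 CPM in Ctrl and 10.03 to 12.7 CPM in AclyM-KO. Basophils and mast cells, which use STAT5 and can express *Cish*, had 0 counts of *Mcpt8*, *Fcer1a* and *Ms4a2* in every library, and their most abundant marker *Cpa3* had 7 to 10 counts. Their 5 markers summed to 0.608 to 1.21 CPM in Ctrl and 0.754 to 0.965 CPM in AclyM-KO. The 5 fibroblast markers summed to 0.203 to 0.491 CPM in Ctrl and 0.546 to 1.23 CPM in AclyM-KO, with *Col1a1* and *Thy1* the most abundant, at up to 8 and 9 counts in a library. The part of these cells in the changes of *Cish* and *Socs2* was not tested.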

How the data were processed

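RNA was measured in 6 libraries. The authors prepared strand-specific mRNA libraries (KAPA HyperPrep), aligned reads to mm10 with STAR 2.5.2b and deposited raw read counts per RefSeq transcript; CASAVA 1.8.2 stands in the submitters' processing notes, and the counting program is not given in the sources used here. Transcripts were paired with genes through RefSeq (GRCm38.p6, 35440 of 35745 rows) and GENCODE M21 (188 rows). The 117 rows without a gene, 0.37% to 1.38% of counts, were left out. Reads were counted on each isoform and strand was not used, as *Xist* and *Tsix* had 7864 counts each in Ctrl replicate 1. The transcript with the highest total was kept per gene. Replicates differed by more than counting noise (chi-square per gene of 2.32 to 7.55).

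The test was the quasi-likelihood F test of edgeR 4.0.16 under R 4.3.3 on raw counts (genes kept by filterByExpr, TMM scaling, genotype as the term, Benjamini-Hochberg adjustment over all genes). The standard error is the absolute log2 fold change over the square root of F. CPM use TMM-scaled library sizes, and RPKM divide them by transcript length in kilobases. DESeq2 1.42.0, which the authors used, and voom of limma 3.58.1 were alternatives, beside other scalings, filters, limits, transcript choices, a replicate term and the removal of each library. Correlations used log2 CPM with a prior count of 2. Members and lists were chosen with earlier results of these data known, and ratios, shares and the promoter motifs after the counts were seen. Named genes are *Acly*, the 8 members, the listed JAK and STAT genes, list genes that passed the test, the most abundant and called markers, and the 3 genes most like each called member; other genes were named after their values were seen. Some listed genes are not reported here.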

Additional observations from a re-analysis of the deposited data

How the results depend on the processing

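*Acly*, *Cish* and *Socs2* kept their calls under 10 alternatives (DESeq2, limma-voom, other scalings, filters and transcript rows, and the replicate block) and in all 6 fits without a library. With each library left out, their log2 fold changes ranged from -1.31 to -1.24, from -0.86 to -0.75 and from -1.52 to -1.23. These fits gave 271 to 317 genes called lower and 315 to 374 called higher, against 309 and 358 in the full data, and 2 members lower and 0 higher each time. The counts of calls followed the limit: 1511 genes lower and 1485 higher with no fold change limit, when *Socs7* made 1 member higher, 80 and 145 with a limit of 1, when 1 member (*Socs2*) was lower, and 41 and 77 with glmTreat, which tests against the limit itself. *Socs1*, near 0, changed sign with upper quartile scaling (4.4e-04) and with the replicate block (4.0e-04), and ranged from -0.10 to 0.090 without single libraries, above 0 without Ctrl replicate 3, AclyM-KO replicate 1 or AclyM-KO replicate 2. *Socs3*, *Socs4*, *Socs5* and *Socs6* kept their direction and stayed uncalled. Replicate numbers did not pair the libraries: correlations of same-numbered deviations were -0.065, 0.050 and -0.031, and the block changed no call of *Acly* or the 8 members and gave 302 genes called lower and 350 higher. Precision is limited most for *Socs3* and *Socs2*, with at most 91 and 175 counts in a library.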
